A study of Homo sapiens with 12 samples.

Results

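The stretch of chromosome 8 from 126.5 to 128.8 Mb (hg38) holds MYC and the gene-poor sequence on either side of it. It was read in 6 lists of H3K27ac peaks from HCT116, an established human colorectal cancer cell line with an active MAPK pathway. Its members are merged regions: the 20000 highest-scoring peaks of each list were pooled over the genome and joined when within 100 bp, which gave 38598 regions, 70 of them in the MYC window. H3K27ac, acetylation of histone H3 at lysine 27, marks active promoters and enhancers. It was mapped by CUT&RUN, in which an antibody directs a nuclease to marked chromatin and the released DNA is sequenced. There were 2 libraries each from cells left untreated, from cells given 1 µM cobimetinib for 24 hours, and from cells given 100 ng/ml TNFα for 24 hours. Cobimetinib blocks MEK1, a kinase of the MAPK pathway that feeds into AP1. The cytokine TNFα stimulates signaling through NF-κB and AP1. All groups come from 1 cell line, so they carry 1 genetic background. The 6 IgG control libraries of the same conditions are not analysed here, and the peaks are given without a measured background. The sources do not say whether replicates were separate cultures, so the spread between them may be technical.

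MYC encodes a transcription factor that binds E-box sequences with its partner MAX and drives genes for growth, ribosome production and metabolism. In colorectal cancer MYC lies downstream of both Wnt and MAPK signaling. The long sequence around it codes for few proteins but is dense in enhancers, many of them tissue-specific, which contact the MYC promoter over large distances. Long noncoding RNAs are transcribed from this desert: CCAT1, CASC19, CASC21 and CASC8 upstream of MYC, and PVT1, the host gene of a group of microRNAs, downstream.

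A library held a region when any of its 20000 highest peaks touched it by 1 bp or more. The rank of a region was the position of its best peak in the full list of that library, with 1 for the highest score. A score depends on sequencing depth, so ranks and not scores were compared. With 2 libraries in a condition and no read counts, an exact test of a single region cannot give a p-value under 0.333, so regions were not called by a test. Counts of regions are therefore given beside the same count over the whole genome.

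The lists held 69813 to 124771 peaks, and the files give no read depth. Untreated replicate 2 stood apart: it had the longest list, and 7102 of its peaks tied at a score of 44, the lowest among its 20000 highest, where the other lists had 332 to 533 such ties. Its 20000 highest peaks had a median width of 380 bp, against 922 to 1265.5 bp elsewhere. Peak names mark this library as merged after resequencing. Each gene of a list was read at its best-ranked region within 1 kb of the start of any of its annotated transcripts. Such a region can lie inside the gene and need not be its main promoter. All 7 epithelial marker genes had a region at a start site read in this way. So did 1 of 8 markers of blood, stroma, liver and glia, the collagen gene COL1A1. Of the 7, only KRT8 and ELF3 were held by all 6 libraries. CDH1 was held by the 2 cobimetinib libraries alone and KRT19 by 1 library. COL1A1 was held by all 6, at ranks from 2327 to 9879. The genes used to check the treatments had no common order. Of 6 MAPK genes, 3 ranked behind untreated in both cobimetinib libraries (DUSP6, SPRY4 and PHLDA1) and 2 ahead (FOSL1 and ETV5), against 11.9% and 20.7% of all regions. FOSL1, an AP1 subunit gene, ranked 32921 and 30557 untreated, 15936 and 12977 with cobimetinib, and 13456 and 22926 with TNFα. The MAPK feedback inhibitor SPRY4 ranked 3358 and 2269 untreated, 15936 and 16932 with cobimetinib, and 2250 and 3618 with TNFα. Of 6 TNFα genes, 4 ranked ahead of untreated in both TNFα libraries (NFKBIA, BIRC3, ICAM1 and RELB), against 18.3% of all regions. NFKBIA, BIRC3 and ICAM1 also did so with cobimetinib, and TNFAIP3 had no call. RELB, an NF-κB subunit gene, ranked 1060 and 4401 untreated, 844 and 1527 with cobimetinib, and 309 and 826 with TNFα.

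The window was rich in distal H3K27ac for its gene content. Of its 70 regions, 67 were distal, meaning farther than 1 kb from the start of any protein-coding transcript. Of 1332 tiles of 2.3 Mb laid end to end over the genome, the median tile had 18 distal regions, and 4 tiles (0.3%) had 67 or more. For all regions the median was 24 per tile, and 83 tiles (6.23%) had 70 or more. The window has 3 protein-coding genes, LRATD2, POU5F1B and MYC. Of the 298 tiles with 3 or fewer such genes, the median had 3 regions, and the tile with the most was the MYC window itself. Tiles covered all main chromosomes, Y included, without masking assembly gaps or sequence where reads cannot be placed. Tiles of that kind hold few or no regions and lower these medians.

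Regions lay on both sides of MYC, with 35 upstream of its start, 34 downstream and 1 across it. They were not spread evenly. From 600 to 400 kb upstream, where CCAT1, CASC19, CASC21 and part of CASC8 lie, there were 7 and 8 regions in consecutive stretches of 100 kb. The first 200 kb downstream, which covers MYC itself and the start of PVT1, had 7 regions in each 100 kb. The widest stretch with no region was 154.3 kb, from 1156.0 to 1001.2 kb upstream. By GENCODE 21 regions overlapped PVT1, 8 overlapped CASC8 and 7 overlapped CASC19, and by RefSeq 4 overlapped CCAT1.

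Shared regions and regions of single libraries were about equally common. There were 18 held by all 6 libraries (25.7%), against 20.5% of all regions and 14% of distal regions, while 33 were held by 2 to 5 libraries and 19 by 1. The shared regions had a median width of 1782.5 bp and those held by 1 library a median of 431 bp. A region spans the merged peaks of all libraries that hold it, so part of this contrast follows from the merging. Untreated replicates 1 and 2 held 35 and 34 regions, cobimetinib replicates 35 and 34, and TNFα replicates 48 and 45. Both TNFα libraries thus held more regions here than any other library, although every library contributed the same number of peaks to the genome-wide set. The summed length of these peaks in the window was 60496 and 55332 bp in the TNFα libraries, 42132 and 42448 bp in the cobimetinib libraries, and 51469 and 25011 bp in the untreated ones. The share of each full list that lay in the window did not put both TNFα libraries first. It was 0.189% and 0.249% with TNFα, 0.203% and 0.225% with cobimetinib, and 0.228% and 0.2% untreated. Untreated replicate 2, the library of narrow peaks, gave the shortest length and 7 of the regions held by 1 library.

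**Figure D1:**
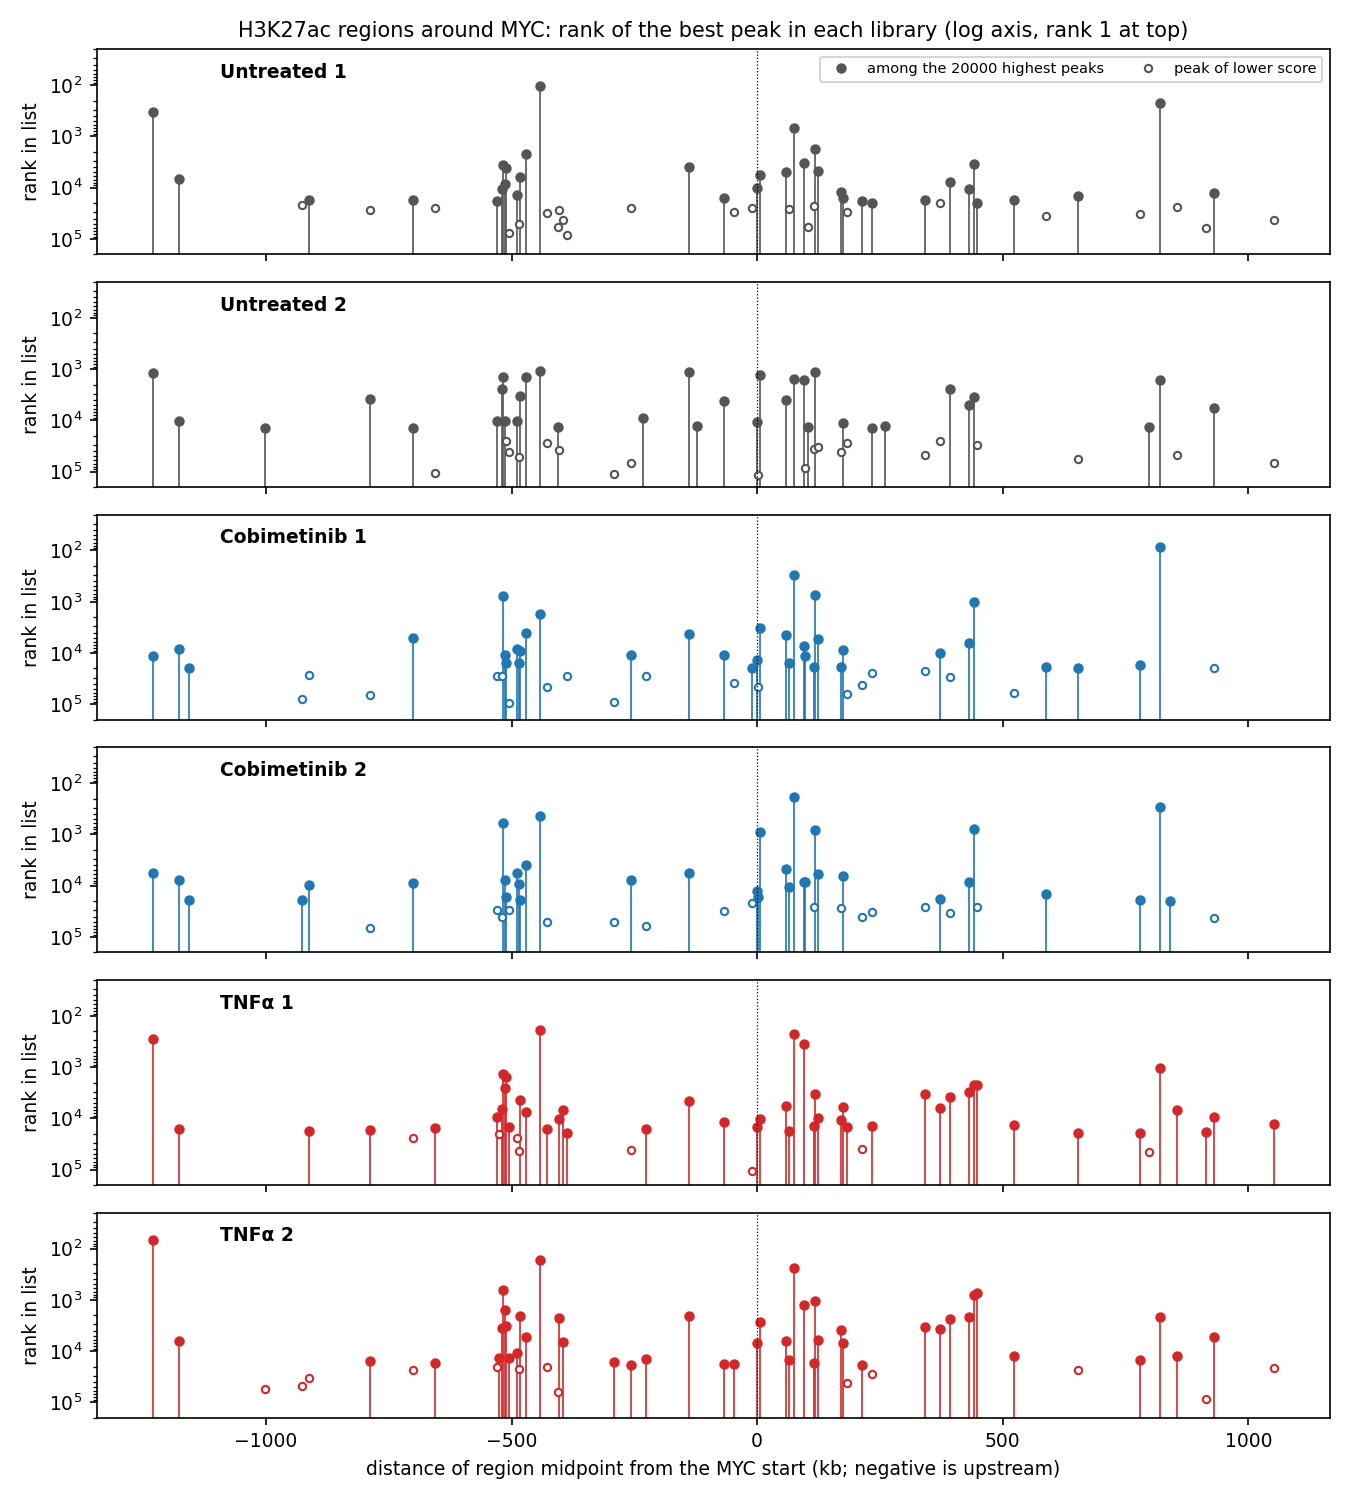
Rank of the best peak (vertical axis, log scale, rank 1 at the top) in each of the 70 regions by distance from the MYC start in kb (horizontal axis), with 1 panel per library. Filled points with a stem are among the 20000 highest peaks of that library and open circles are peaks of lower score; the cluster near 500 kb upstream and the high points 441.4 kb upstream, 74.0 kb and 819.5 kb downstream recur across panels.

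The MYC promoter itself was marked in every library, at ranks from 7064 to 14543. The region across the MYC start (chromosome 8, positions 127735053 to 127736919, overlapping exon sequence of MYC) ranked 10280 and 10854 in the untreated libraries, 12403 and 13448 with cobimetinib, and 7064 and 14543 with TNFα. The cobimetinib ranks were both behind the untreated ones, and the TNFα ranks lay on either side of all the others. As a share of the full list, the rank ran from 7.6% in TNFα replicate 2 to 17.8% in cobimetinib replicate 2. Of 4099 regions at protein-coding starts held by all 6 libraries, 3874 (94.5%) had a better mean log10 rank than MYC. Asking for all 6 libraries left out most weaker starts beforehand, so this share does not place MYC among all starts. The mean log10 rank differed by 0.087 between cobimetinib and untreated (exact permutation test, two-sided, p = 0.333, n = 2 against 2), which is the smallest p this design allows. Between TNFα and untreated it differed by -0.018 (exact permutation p = 1), and without TNFα replicate 2 the sign turned, to 0.139. Between TNFα and cobimetinib it differed by -0.105 (exact permutation p = 1), and by 0.052 without that library. With 2 libraries in a condition, no difference at the MYC start could be called.

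The start-site regions most like that of MYC, by the root-mean-square difference in log10 rank over the 6 libraries, were those of MCMBP (0.051), PTGER4 (0.057), RAP2C (0.061), BAG2 (0.062) and MRPL53 (0.064). MCMBP encodes a binding protein of the replicative helicase and PTGER4 a receptor for prostaglandin E2. At PTGER4 the ranks were 9822 and 9137 untreated, 14821 and 13646 with cobimetinib, and 12287 and 8245 with TNFα. A like order of ranks says nothing of how these genes are controlled.

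Acetylation at the 3′ end of the gene ranked ahead of the promoter in every library. This region, 6.5 kb downstream (127741746 to 127743808) and overlapping exon sequence of MYC as well as sequence past it, ranked 5631 and 1315 untreated, 3306 and 905 with cobimetinib, and 10192 and 2731 with TNFα. In each condition replicate 2 ranked well ahead of replicate 1, and the conditions overlapped. Between these, 1.8 kb downstream, cobimetinib replicate 2 alone held a narrow region, at rank 16629.

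The strongest sites near MYC lay in the first part of PVT1. The region over a PVT1 start and the microRNA gene MIR1204, 59.2 kb downstream (127794459 to 127796352), had ranks of 4992 and 4009 untreated, 4377 and 4729 with cobimetinib, and 5653 and 6339 with TNFα. All 6 ranks were ahead of those of the MYC start in the same library. A PVT1 intron 74.0 kb downstream (127809078 to 127811286) ranked 677 and 1558 untreated, 295 and 188 with cobimetinib, and 231 and 245 with TNFα. Both treatments thus ranked ahead of untreated cells there, and by almost equal amounts, with geometric mean ranks of 235 and 238 against 1027.

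An intron site 95.2 kb downstream (127830659 to 127832201) separated the treatments. It ranked 3321 and 1600 untreated, 7290 and 8400 with cobimetinib, and 360 and 1250 with TNFα, so that the 3 conditions did not overlap. The site 118.2 kb downstream, across the start of a shorter PVT1 transcript (127853690 to 127855184), went differently. Its ranks were 1774 and 1126 untreated, 722 and 818 with cobimetinib, and 3344 and 1037 with TNFα: the cobimetinib libraries ranked ahead of all others.

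**Figure D2:**
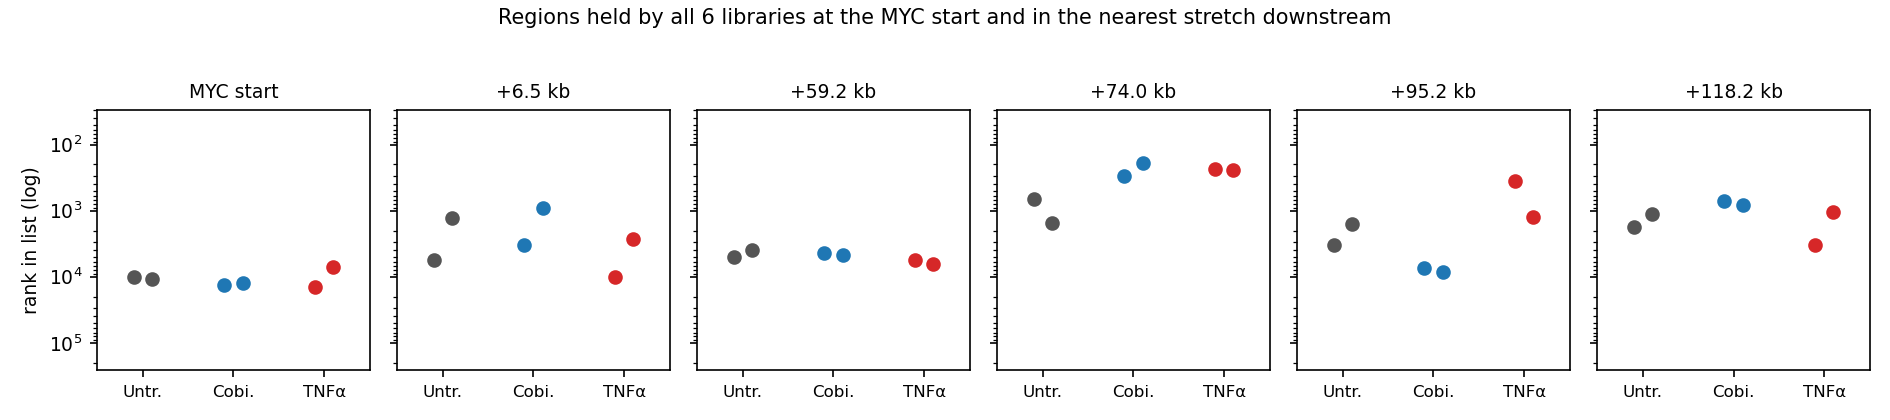
Rank of the best peak (log axis, rank 1 at the top) at the MYC start and at the 5 regions held by all 6 libraries within 118.2 kb downstream, with 2 points per condition, replicate 1 on the left. The MYC start lies near rank 10000 in every condition, whereas the site at 74.0 kb lies ahead of rank 700 in 5 of 6 libraries and the site at 95.2 kb is ranked apart in each condition.

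Farther along PVT1, toward and past MIR1208, ranks were better under TNFα than untreated at several sites. The region 446.9 kb downstream (128182453 to 128183731) ranked 19692 and 30557 untreated and 2250 and 727 with TNFα, while cobimetinib replicate 1 had no peak there and replicate 2 ranked 25740. At 340.7 kb, also in a PVT1 intron, the ranks were 17732 and 46367 untreated, 22080 and 26368 with cobimetinib, and 3414 and 3376 with TNFα. The neighbouring site at 440.7 kb ranked ahead of untreated cells under both treatments, with 3390 and 3550 untreated, 1017 and 792 with cobimetinib, and 2194 and 809 with TNFα. In all, 11 of the 21 PVT1 regions ranked ahead of both untreated libraries in both TNFα libraries and 2 ranked behind them. Not all of the 21 were held by a library of these conditions and so tested. Over the genome 18.3% and 10.1% of tested regions did so, and a share of distal regions alone was not counted. In the whole window 26 of 62 tested regions ranked ahead (41.9%) and 5 behind (8.06%), so this balance was not particular to PVT1. GENCODE extends PVT1 over all of these sites, but RefSeq ends it earlier, and by RefSeq 16 regions overlap it.

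Beyond PVT1 one site stood out by its rank. The region in an intron of the noncoding gene LINC00824, 819.5 kb downstream (128554275 to 128557220), was the widest of the window at 2946 bp. It ranked 224 and 1670 untreated, 85 and 287 with cobimetinib, and 1063 and 2185 with TNFα. It was the best peak of the window in cobimetinib replicate 1, and both TNFα libraries ranked behind both cobimetinib libraries.

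Upstream of MYC the best peaks lay in the span of CASC8 and at the far edge of the window. An intron of CASC8 also within a long PCAT1 transcript, 441.4 kb upstream (127293668 to 127295984), had the best geometric mean rank of the window, 373. This region lies 856 bp from the start of a PCAT1 transcript. It ranked 102 and 1091 untreated, 1771 and 436 with cobimetinib, and 191 and 164 with TNFα, and was the best window peak in both untreated libraries and in TNFα replicate 1. The outermost region, 1229.6 kb upstream (126505776 to 126507548), overlaps an exon of an unnamed noncoding gene. It ranked 333 and 1194 untreated, 11620 and 5645 with cobimetinib, and 281 and 67 with TNFα, which is the widest split between cobimetinib and TNFα among regions held by all 6 libraries, with geometric means of 8099 and 137. The start of LRATD2, the nearest protein-coding gene to it, 1177.8 kb upstream, did not follow that pattern. LRATD2 ranked 6894 and 10226 untreated, 8489 and 7731 with cobimetinib, and 15858 and 6416 with TNFα.

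The block of regions over CCAT1 and CASC19 held sites with opposite orders within a few kilobases. At 516.6 kb upstream (127218717 to 127220482), on exon sequence of CASC19, ranks were 3660 and 1411 untreated, 757 and 587 with cobimetinib, and 1371 and 640 with TNFα, so all 4 treated libraries ranked ahead of both untreated ones. The region just before it, at 520.5 kb (127214760 to 127216723), ranked 10487 and 2450 untreated, 28306 and 40126 with cobimetinib, and 6437 and 3526 with TNFα. There the cobimetinib libraries fell outside the 20000 highest peaks and the TNFα libraries did not. At 513.1 kb the ranks were 8644 and 10226 untreated, 10719 and 7836 with cobimetinib, and 2576 and 1580 with TNFα. That region and the one at 511.1 kb ranked ahead in both TNFα libraries of all 4 others.

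Closer to MYC on this side there was 1 region held by all 6 libraries other than the one across the start, 139.8 kb upstream (127595704 to 127597250). It ranked 3895 and 1159 untreated, 4183 and 5736 with cobimetinib, and 4556 and 2104 with TNFα. GENCODE has an unnamed noncoding gene there and RefSeq none.

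**Figure D3:**
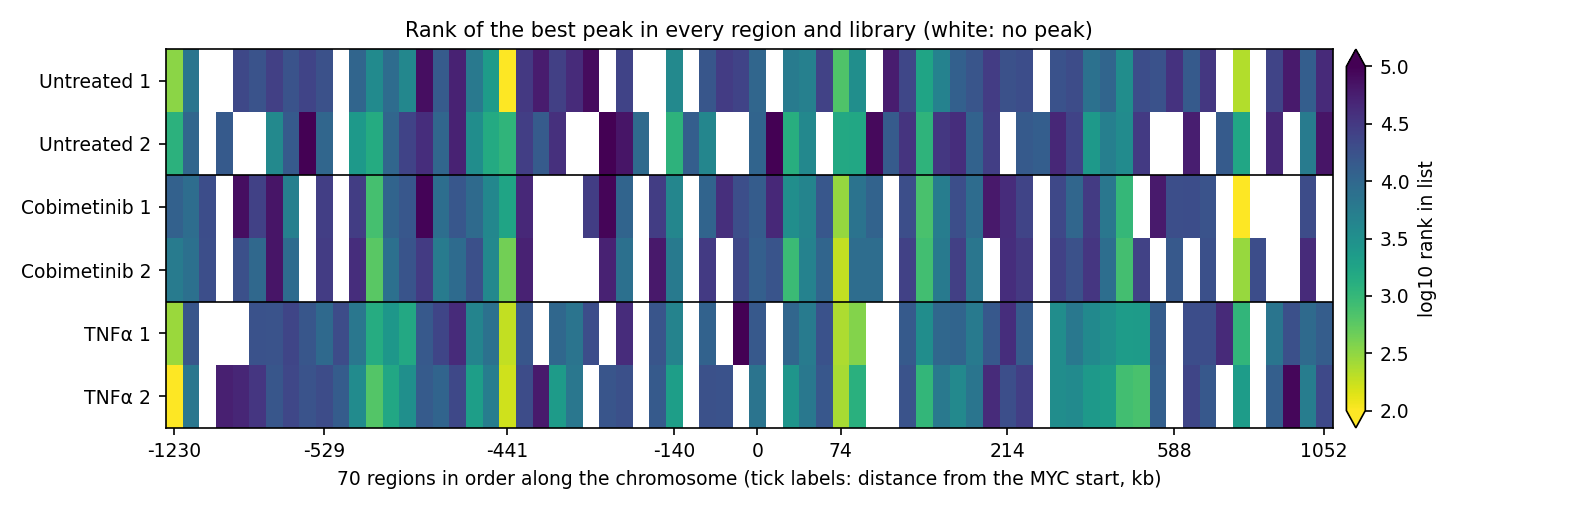
Log10 rank of the best peak (colour, yellow for the best ranks, dark for the worst, ends of the scale open) for the 70 regions in chromosomal order (columns) in each library (rows); white cells have no peak at any score. Columns that are light in most rows mark sites such as 441.4 kb upstream and 74.0 kb downstream.

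Ranks over the window were closer between replicates than between conditions. Spearman's rho over regions with a peak in both libraries was 0.89 for the cobimetinib pair (49 regions), 0.85 for the TNFα pair (53 regions) and 0.76 for the untreated pair (46 regions). Between conditions it ran from 0.45 to 0.74. These are descriptions over regions that share libraries, not independent points.

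A larger share of regions was lost under cobimetinib in the window than over the genome, but this depended on the limit of 20000 peaks and on untreated replicate 1. Of 26 regions present in both untreated libraries, 5 (19.2%) were held by neither cobimetinib library. Over the genome the share was 6.03%, and among distal regions 8.66%. Without untreated replicate 2 the count was 9 of 35 against 16.2% of all regions. Without untreated replicate 1, leaving the library of narrow peaks as the only control, it was 13 of 34 against 45.5%. With the 10000 highest peaks of each list the count was 1 of 14 against 10.9%, and with 40000 it was 2 of 34 against 5.76%, so the excess was gone at both limits. In this and the next paragraphs, the shares beside other settings cover all regions. A distal share was counted only with the main setting.

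These 5 regions lay 529.4 and 520.5 kb upstream and 233.4, 391.6 and 929.9 kb downstream. The first pair are the CCAT1 and CASC19 sites, the next pair lie in PVT1, and the last lies in an intron of CCDC26, a noncoding gene that reaches into the window. At 391.6 kb (128126883 to 128128843) the ranks were 7691 and 2450 untreated and 29853 and 33376 with cobimetinib, against 3752 and 2352 with TNFα. At 929.9 kb (128665418 to 128666892) they were 12591 and 5617 untreated, 20001 and 43186 with cobimetinib, and 9247 and 5293 with TNFα. A cobimetinib rank of 20001 is the first position outside the 20000 highest, so this loss turns on the limit. The least split was at 233.4 kb, with 19692 and 14328 untreated against 24291 and 31893. In all 5, both cobimetinib lists still had a peak of lower score.

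The share gained under cobimetinib was also above that of the genome at this limit and with both controls. Of 30 regions held by both cobimetinib libraries, 8 (26.7%) were held by neither untreated library, against 10.0% of all regions and 15.3% of distal ones. Without untreated replicate 2 the count was 8 of 30 against 12.1%, and without untreated replicate 1 it was 10 of 30 against 41.2%. With the 10000 highest peaks it was 3 of 17 against 13.5%, and with 40000 it was 4 of 40 against 9.95%, the share of the genome. The 8 regions were at 1156.0, 483.9 and 257.5 kb upstream and at 65.4, 97.0, 372.8, 588.2 and 778.9 kb downstream.

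The best ranked of them under cobimetinib was 257.5 kb upstream (127478053 to 127479500), on exon sequence of CASC8. It ranked 10888 and 7836 with cobimetinib, 24928 and 67712 untreated, and 41275 and 18549 with TNFα. The site 97.0 kb downstream in PVT1 ranked 11233 and 8400 with cobimetinib, had no peak in untreated replicate 1 and in both TNFα libraries, and ranked 83958 in untreated replicate 2. It lies less than 1 kb from the intron site at 95.2 kb, which ranked behind untreated cells under cobimetinib.

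Losses were few under TNFα. Of the 26 regions present in both untreated libraries, 1 (3.85%) was held by neither TNFα library, against 3.77% of all regions and 4.90% of distal ones. It lay 700.5 kb upstream in a PCAT1 intron (127035002 to 127036396) and ranked 17015 and 14328 untreated, 23615 and 22926 with TNFα, and 5070 and 8917 with cobimetinib. Without untreated replicate 1 the count was 8 of 34 against 44.3%.

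Gains under TNFα were more frequent here than over the genome with both controls, though not against untreated replicate 2 alone. Of 39 regions present in both TNFα libraries, 10 (25.6%) were held by neither untreated library, against 8.90% of all regions and 13.8% of distal ones. Without untreated replicate 2 the count was 11 of 39 against 11.0%, and without untreated replicate 1 it was 16 of 39 against 40.0%. With the 10000 highest peaks it was 5 of 23 against 11.2%, and with 40000 it was 5 of 50 against 7.42%. Whether these counts exceed a distal share was not tested. The 10 regions lay at 655.2, 504.7, 404.1, 395.6 and 226.7 kb upstream and at 65.4, 115.7, 372.8, 778.9 and 855.3 kb downstream.

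The best ranked of these under TNFα was 404.1 kb upstream (127331487 to 127332836), within introns of CASC8 and of a long POU5F1B transcript. It ranked 10068 and 2271 with TNFα and 27215 and 37986 untreated, and neither cobimetinib list had a peak. At 372.8 kb downstream, in PVT1, the ranks were 6266 and 3665 with TNFα, 10194 and 17838 with cobimetinib, and 19977 and 24926 untreated. In untreated replicate 1 that region missed the 20000 highest peaks although its rank was 19977, because peaks tied at the lowest score were taken in file order. At 395.6 kb upstream, on exon sequence of PCAT1, TNFα libraries ranked 6976 and 6518, untreated replicate 1 ranked 42287, and the other libraries had no peak.

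The direct comparison of the treatments needed no untreated library and gave the largest set. Of the 39 regions present in both TNFα libraries, 13 (33.3%) were held by neither cobimetinib library, against 13.5% of all regions and 21.1% of distal ones. Without TNFα replicate 2 the count was 21 of 48 against 20.4%, and without TNFα replicate 1 it was 17 of 45 against 22.8%. With 1 cobimetinib library left out at a time it was 16 or 13 of 39, against 19.7% and 20.1%. With the 10000 highest peaks it was 8 of 23 against 18.3%, and with 40000 it was 9 of 50 against 11.4%. These other settings have only the share of all regions beside them, which in the main setting was lower than the distal one. An excess over distal regions cannot be read from them. The other way round, 5 of 30 regions held by both cobimetinib libraries (16.7%) were held by neither TNFα library, against 11.2% of all regions and 16.6% of distal ones, so the share was at the distal background.

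The 13 regions lay on both sides of MYC, with 7 upstream and 6 downstream. They differed in their untreated level. At 520.5 kb upstream and at 391.6 and 929.9 kb downstream both untreated libraries held the region, and cobimetinib was the condition apart. At 789.1 kb upstream and at 340.7, 446.9 and 522.4 kb downstream 1 untreated library held it. At 655.2, 504.7, 404.1, 395.6 and 226.7 kb upstream and at 855.3 kb downstream neither did, and TNFα was the condition apart. At 655.2, 404.1 and 395.6 kb upstream and 855.3 kb downstream neither cobimetinib list had a peak at any score.

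**Figure D4:**
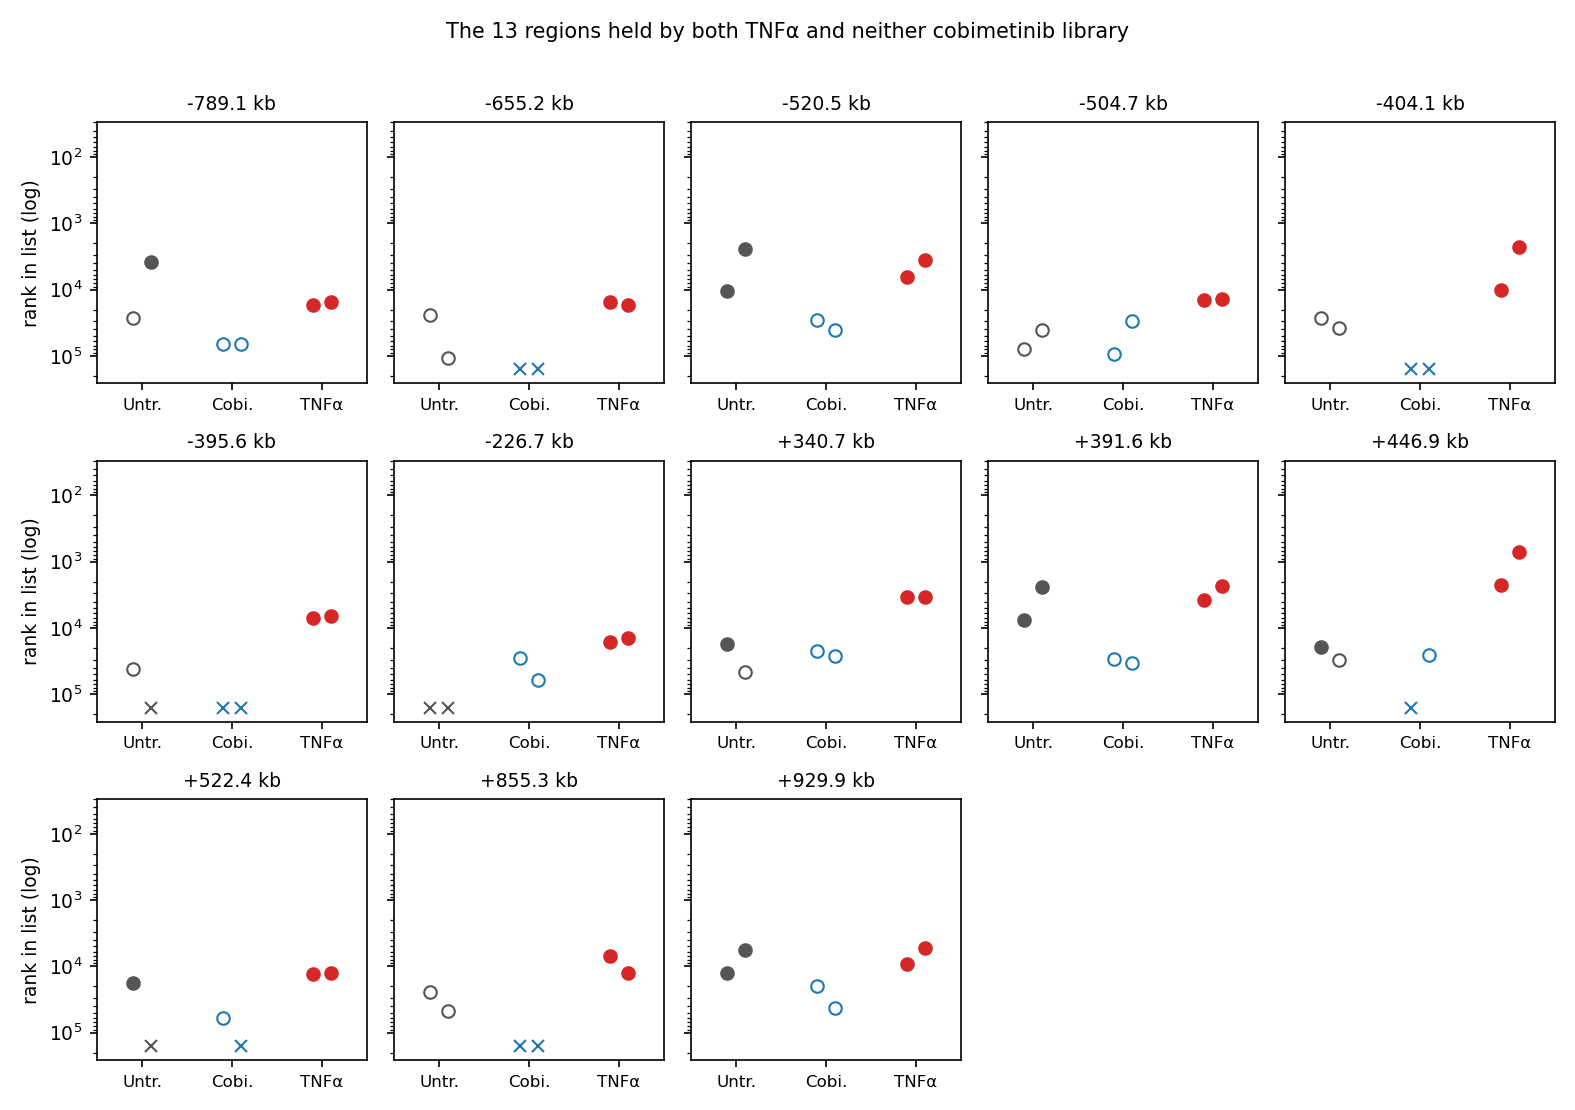
Rank of the best peak (log axis, rank 1 at the top) in the 13 regions held by both TNFα and neither cobimetinib library, 1 panel per region titled by its distance from the MYC start, with 2 points per condition. Filled points are among the 20000 highest peaks, open circles are peaks of lower score and crosses at the bottom mark no peak; the untreated points lie near TNFα in some panels and near cobimetinib in others.

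**Figure D5:**
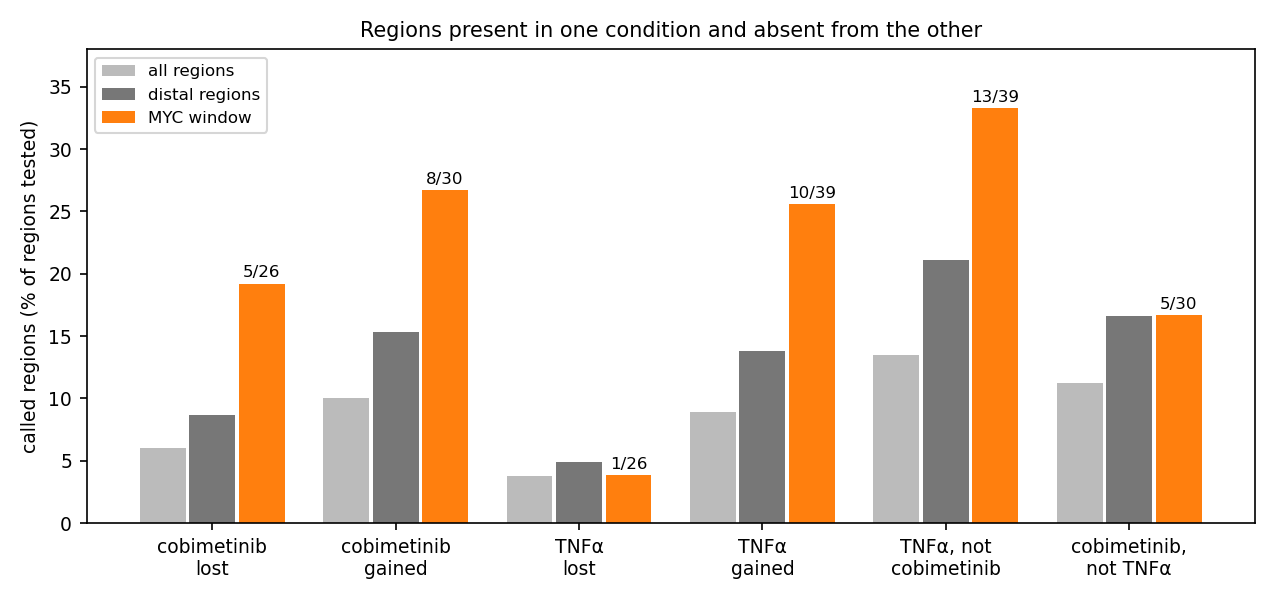
Share of regions called (vertical axis, % of those tested, from 0) in the 6 presence sets for all regions, for distal regions and for the MYC window, with the number called and tested above each window bar. The window bars stand at 19.2, 26.7, 25.6 and 33.3% in 4 sets and at the distal background in the sets lost under TNFα and held by cobimetinib but not TNFα.

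Rank order over all regions, which does not depend on the limit of 20000 peaks for absence but does for entry, gave more calls. A region was called here if both ranks of 1 condition lay beyond both ranks of the other, with no peak placed last. Only regions held by any of the 4 libraries were counted, so a region could enter through the condition where it ranked high. Both cobimetinib libraries ranked ahead of both untreated ones in 17 of 56 regions (30.4%), against 20.7% of all regions, and behind them in 14 (25%), against 11.9%. Scaled to the length of each list, the balance turned, with 12 ahead and 15 behind, so no direction is given for cobimetinib over the window.

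For TNFα the order was lopsided, but it is not separate from the presence sets. The regions ahead of untreated include all 10 gained under TNFα. Those ahead of cobimetinib include all 13 held by TNFα and not cobimetinib. Both TNFα libraries ranked ahead of both untreated ones in 26 of 62 regions (41.9%), against 18.3% of all regions, and behind them in 5 (8.06%), against 10.1%. Scaled to list length the counts were 24 and 3. Without untreated replicate 1 they were 33 and 16 of 62, against 45.1% and 41.0%, and without untreated replicate 2 they were 31 and 9 of 55, against 30.8% and 37.2%. Against cobimetinib, TNFα ranked ahead in 30 of 63 regions (47.6%), against 25.2% of all regions, and behind in 14 (22.2%), against 27.2%. Scaled to list length the latter counts were 32 and 12, against 29.4% and 19.0%. Nearly all window regions tested by rank order were distal: 53 of 56 for cobimetinib against untreated, 60 of 62 for TNFα against untreated, and 60 of 63 for TNFα against cobimetinib. Their background among distal regions alone was not counted, so these shares have no like comparison.

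The regions behind untreated under TNFα were at 700.5, 470.3 and 405.2 kb upstream and at 59.2 and 102.6 kb downstream. Among them is the PVT1 start. The region 470.3 kb upstream in CASC21 (127264743 to 127267077) ranked 2239 and 1448 untreated, 4112 and 3955 with cobimetinib, and 7586 and 5293 with TNFα, so all 4 treated libraries ranked behind both untreated ones.

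Short words bound by factors at the end of these pathways were counted in the 500 bp around each midpoint. AP1, the FOS and JUN dimer that MAPK signaling activates, binds TGACTCA, TCF/LEF factors of the Wnt pathway bind CTTTGAT or CTTTGAA, and MYC with MAX binds CACGTG. Each was searched on both strands, and no word contains another. The AP1 word was in 18 of 70 window regions (25.7%), against 23.1% of all regions and 29.4% of distal ones. The TCF/LEF words were in 12 (17.1%), against 15.4% and 18.7%, and the E-box in 4 (5.71%), against 7.34% and 5.62%. None of these shares was far from that of distal regions, and the 500 bp around the midpoint of the MYC start region held none of the words.

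The AP1 word was in 3 of the 5 regions lost under cobimetinib (60%), at 233.4, 391.6 and 929.9 kb downstream, against 50.9% of distal regions lost in the same way. It was in 4 of the 13 held by TNFα and not cobimetinib (30.8%), against 51.5%, and in 3 of the 10 gained under TNFα (30%), against 47.9%. These counts are small, and a match is a description of letters and not a bound site. The 118.2 kb site in PVT1, where cobimetinib ranked ahead, had 2 AP1 words, and the sites at 74.0, 95.2 and 446.9 kb had none.

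Genes of the MYC network showed no common order. Of 12 genes for partners and relatives of MYC, 11 had a start-site region and 3 were held by all 6 libraries, those of MXD1, MLXIP and MLXIPL; MYCN had none. MAX, the obligate partner, was held only by TNFα replicate 1, at rank 12750. MXD3, a MAX partner that opposes MYC, was lost under cobimetinib, with ranks of 3220 and 4401 untreated, 40399 and 22977 with cobimetinib, and 7869 and 22926 with TNFα. MLX, a MAX-like protein, was gained, with 20572 and no peak untreated and 8001 and 10080 with cobimetinib. By rank order cobimetinib was ahead of untreated at 1 gene and behind at 3, against 20.7% and 11.9% of all regions. TNFα was ahead at 2 and behind at 4, against 18.3% and 10.1%.

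Of 12 genes known as MYC targets, 11 had a start-site region and 3 were held by all 6 libraries: ODC1, NCL and PTMA. RCC1, a regulator of the RAN cycle, was lost under cobimetinib and kept under TNFα, with ranks of 10487 and 9612 untreated, 24291 and 20286 with cobimetinib, and 9691 and 5743 with TNFα. NCL, which encodes nucleolin, ranked ahead of untreated cells under both treatments, at 7412 and 7060 untreated, 5765 and 4914 with cobimetinib, and 2399 and 4259 with TNFα. TNFα ranked ahead of cobimetinib at 5 of these genes and behind at 0, against 25.2% and 27.2% of all regions. It ranked ahead of untreated at 2 and behind at 0, against 18.3% and 10.1%, so the former was at the background. TERT had a peak in untreated replicate 2 only and could not be called. All gene lists were read at start sites, whereas these backgrounds cover all 38598 regions, of which 27384 were distal. A background of start-site regions alone was not counted.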

How the data were processed

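Peak lists of 6 H3K27ac CUT&RUN libraries from HCT116 cells were used, grouped by the treatment in the labels. Per the study's methods, the authors trimmed reads with BBDuk, aligned them to hg38 with BWA (0.7.15), filtered by mapping quality with samtools and called peaks in each library with MACS2 (2.1.1), without IgG and at a relaxed p-value. Peaks called in paired-end and in single-end mode were merged, keeping the higher value. The deposited score of each peak is a whole number with a minimum of 20 in every list. On a scale of minus 10 times log10, this corresponds to a calling threshold of 0.01. Scores rise with depth, which the files do not give, so the study's test on read counts could not be made and precision is given only by the spread between libraries.

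Regions were built by the study's rule from the top 20000 peaks, ties in file order, and annotated with GENCODE version 44 and with RefSeq on GRCh38, which holds CCAT1 and CASC21. Distances run from region midpoints to the MYC start at 127736231. Start-site regions lay within 1 kb of an annotated transcript start, and a listed gene was read at the best ranked of these, whichever transcript it belonged to. Presence, rank order and motif words were counted in Python (3.11.15) with pandas (2.3.3), and mean log10 ranks were compared by exact permutation tests with SciPy (1.17.1). The counting was tested on lists simulated from a single library with score noise and planted gains and losses. That check did not cover the differences in list length, peak width and ties between the real lists. Named were the MYC start, the regions of the presence sets, the 10 best by mean rank, the outermost regions and fixed gene lists; other regions described here were chosen after their values were seen. The members and lists were chosen with earlier results of these data known. Alternatives changed the number of top peaks, the merging distance, the overlap, the handling of ties, and the libraries.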

Additional observations from a re-analysis of the deposited data

How the results depend on the processing

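Of 145 values recomputed under other settings, 107 kept their direction or stayed within 1.5 times the reported count, 36 counts moved further and 2 values turned sign. The cause was not tested except where fewer libraries or peaks make the change by construction. This tally ignores the background, so a count that stayed can have lost its excess. The shares given below cover all regions, distal or not. Without untreated replicate 1, gains under cobimetinib were 10 of 30 against 41.2% of all regions, where the main setting gave 8 of 30 against 10.0%. With the 10000 highest peaks the window had 40 regions, with 1 of 14 lost and 3 of 17 gained under cobimetinib (10.9% and 13.5% of all regions), 0 of 14 lost and 5 of 23 gained under TNFα (6.97% and 11.2%), 8 of 23 held by TNFα and not cobimetinib (18.3%), and 2 of 17 the other way round (15.4%). With 40000 it had 174 regions, with 2 of 34 lost and 4 of 40 gained under cobimetinib (5.76% and 9.95%) and 0 of 34 lost and 5 of 50 gained under TNFα (4.54% and 7.42%), so the cobimetinib shares were close to those of the genome. Merging within 1000 bp left 3 of 27 regions held by cobimetinib and not TNFα (10.8%), and asking peaks to cover 50% of a region left 1 of 12 lost under cobimetinib (6.77%). Counting a region as absent only outside the 40000 highest peaks, a setting chosen after seeing the data, gave 0 of 26 lost and 3 of 30 gained under cobimetinib (1.19% and 2.36%), 0 of 26 lost and 3 of 39 gained under TNFα (0.487% and 2.20%), 6 of 39 held by TNFα and not cobimetinib (5.37%), and 3 of 30 the other way round (3.64%). Ranks scaled to list length, also chosen after seeing the data, put 3 regions behind untreated under TNFα.

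Leaving out 1 library at a time, regions lost under cobimetinib numbered 5 to 13, lost under TNFα 1 to 8, gained under TNFα 10 to 16, held by TNFα and not cobimetinib 13 to 21, and the other way round 5 to 8. By rank order cobimetinib was behind untreated in 14 to 22 regions, TNFα behind untreated in 5 to 16 and TNFα behind cobimetinib in 14 to 22. The mean log10 rank difference at the MYC start ran from -0.175 to 0.139 for TNFα against untreated and from -0.262 to 0.052 for TNFα against cobimetinib, with both upper values from leaving out TNFα replicate 2. With the replicate number as a block, a setting added after seeing the data, the differences at the MYC start were 0.087 for cobimetinib against untreated (exact sign-flip permutation test, two-sided, p = 0.5, the smallest that 2 pairs allow), -0.018 for TNFα against untreated and -0.105 for TNFα against cobimetinib (exact permutation p = 1 for both). Whether a number marks a shared culture or day is not given in the sources used here, and over 18053 regions with a peak in every list the replicate differences of 2 conditions correlated at 0.03 to 0.09. The block changed no call. Presence depends on the list limit: a region just outside the 20000 highest peaks counts as absent, and peak lists without read counts or IgG cannot tell a loss of acetylation from a change in the other peaks of the list.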

Other observations

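CCDC26, the noncoding gene whose far end reaches into the window, has its start outside it, at chromosome 8, positions 129684595 to 129686418. This region was singled out after its values were seen. It was held by all 6 libraries and ranked 1496 and 943 untreated, 14301 and 10576 with cobimetinib, and 1033 and 380 with TNFα, so both cobimetinib libraries ranked behind all 4 others, the same order as at the CCDC26 intron site 929.9 kb downstream of MYC.

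Among 12 annotated genes of the window, CASC8, POU5F1B, CCAT2 and LINC00824 had no region within 1 kb of a start in any library, although regions in the introns of CASC8 and LINC00824 were among the best ranked of the window.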
